A study of Mus musculus with 45 samples.

Results

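YEJG-M1 and YEJG-M2 are mouse mammary tumour cell lines, positive for *PyMT*, that the labels give as whole lung, and each was sequenced in 3 libraries. These 6 libraries, of 45 in the series, were chosen by their titles and compared with each other. The remaining 13 lines (39 libraries) served as background: the primary tumour lines YEJG and YEJH, the fat-pad line YEJG-FP, and 5 fat-pad and 5 lung lines of YEJH. All 15 lines carry *PyMT*, the polyomavirus middle T oncogene, and no treatment, age or further allele is given for them. As the study describes them, lung lines were grown from lung micrometastases that appeared once fat-pad tumours of *PyMT*+ cells had been resected, and all lines were plated 24 h before lysis. Each lung line is 1 line and its 3 libraries are technical repeats by the study's account, so every p-value here measures the spread between libraries of a line, not between metastases.

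Epithelial cells hold together through adherens junctions, tight junctions and desmosomes and rest on a laminin-rich basement membrane. In an epithelial-mesenchymal transition, transcription factors of the Snail and Zeb families lower junction genes while the intermediate filament vimentin and interstitial matrix proteins rise. Mammary tumour cells can stop at intermediate states along this axis.

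Between 11578293 and 14840853 reads per library fell on genes in YEJG-M1, and between 12737944 and 16399035 in YEJG-M2. Levels are read counts scaled by library size and TMM normalised (CPM) on a scale common to all 45 libraries, and fold changes are log2 of YEJG-M1 over YEJG-M2 with library run as covariate. YEJG-M1 has 2 libraries of run A and 1 of run B, YEJG-M2 has 1 of run A and 2 of run B, and 1016 of 13147 genes differed between runs among the 6 libraries. The library of YEJG-M1 replicate 1 bears a YEJH name. Among libraries of its run its profile was closest to YEJG-M1 replicate 3 (Pearson's r = 0.988 across genes, which are not independent replicates), then to YEJG-M2 replicate 1 (r = 0.983) and to YEJG-FP replicate 3 (r = 0.957). Despite the label whole lung, *Sftpc*, *Sftpb*, *Sftpa1*, *Sftpd*, *Scgb1a1*, *Scgb3a2* and *Nkx2-1* had no read in any of the 6 libraries. The 12 lung epithelial markers summed to 9.08 to 10.2 CPM in YEJG-M1 and 16.9 to 19.95 CPM in YEJG-M2, and 10 of them stayed under 1 CPM in all 6 libraries. Of the 3 that could be tested, *Foxj1* (-3.22) was called higher in YEJG-M2, and *Hopx* (2.87) and *Rtkn2* higher in YEJG-M1. Mean *Foxj1* levels in the other 13 lines ran from 10.2 to 53.3 CPM. The primary tumour lines YEJG and YEJH had 21.8 and 18.4 CPM. The 15 leukocyte markers summed to 15.4 to 17.6 CPM and 23.2 to 24.9 CPM, with *Cd3e*, *Adgre1*, *Itgam*, *C1qa* and *Tyrobp* without a read throughout. Of the 4 that could be tested, *Csf1r* (-1.44) and *S100a8* (-1.91) were called higher in YEJG-M2, and their part in the results was not tested. Endothelial markers (10) summed to 5.83 to 6.25 CPM and 5.68 to 7.01 CPM, fibroblast markers (10) to 76.5 to 77.9 CPM and 76.1 to 97.4 CPM, and adipocyte markers (6) to at most 0.194 CPM. Mammary tumour epithelial markers (12) summed to 3634 to 4061 CPM and 3559 to 4048 CPM, with *Elf5* alone without a read. Most of these sums came from *Krt8* and *Krt18*, with means of 1735 and 1149 CPM in YEJG-M1 and 1356 and 1034 CPM in YEJG-M2. Of the 11 that could be tested, 0 were called higher in YEJG-M1 and 7 higher in YEJG-M2 (63.6%, beside 10.2% of all genes).

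Of 13147 genes tested, 1340 (10.2%) passed an adjusted p of 0.05 between the lines (edgeR quasi-likelihood test, Benjamini-Hochberg adjustment), 718 (5.46%) higher in YEJG-M1 and 622 (4.73%) higher in YEJG-M2. The libraries did not overlap between lines in 1312 of the 1340, and in 3714 of all genes tested. A change of at least 2-fold was called in 423 (3.22%), of which 270 (2.05%) were higher in YEJG-M1 and 153 (1.16%) in YEJG-M2. Protein-coding genes made up 411 of the 423. In a fit of all 45 libraries, 502 genes differed by at least 2-fold between these lines, and pairs of YEJH lung lines differed in 271 to 730, with 3 of 10 pairs above 502. Leaving out YEJG-M1 replicate 2 or YEJG-M2 replicate 1, each the only library of its run in its line, gave 280 calls in either case. Of 197 genes named by rule or called in a list, 122 and 124 lost their call in these settings, with no change of sign.

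**Figure D1:**
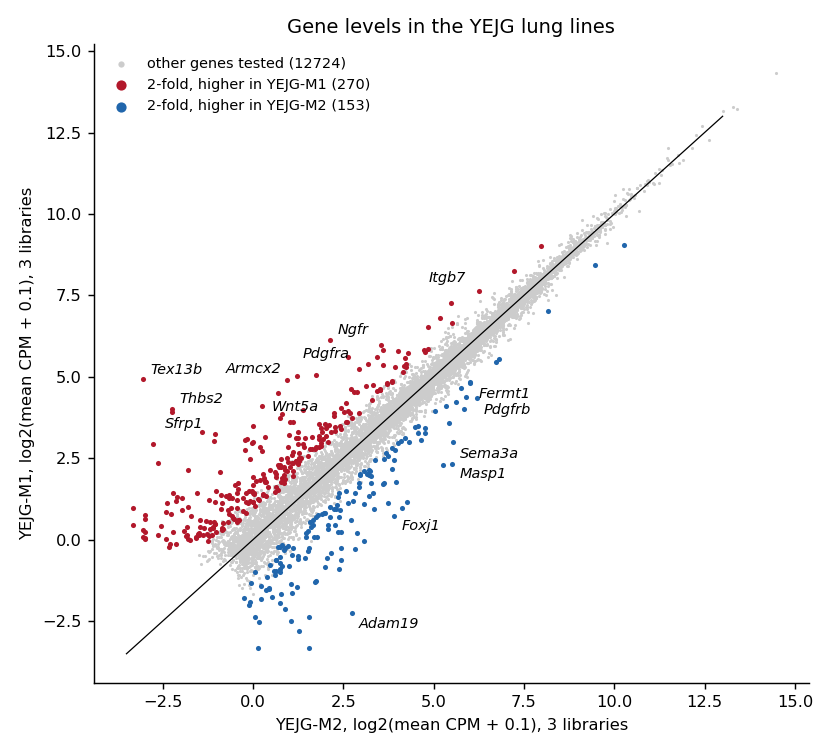
Mean level of each of 13147 genes in YEJG-M2 (horizontal) and YEJG-M1 (vertical) over 3 libraries a line, as log2(mean CPM + 0.1), with a line at equal levels. Red points are the 270 genes called and at least 2-fold higher in YEJG-M1, and blue points the 153 higher in YEJG-M2.

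Cell junction genes were called lower in YEJG-M1 than in YEJG-M2 far more often than higher. In all, 46.7% were called, beside 10.2% of all genes. Of 30 tested (6 more were not tested), 1 was called higher in YEJG-M1 and 13 higher in YEJG-M2, with a median log2 fold change of -0.38 (counts of 0 and 5 without YEJG-M1 replicate 2, and of 0 and 5 without YEJG-M2 replicate 1). Over all genes tested the median was -0.0060, and 27 of the 30 junction genes lay below 0. *Cdh1*, which encodes E-cadherin of the adherens junction, stood at 61.4, 62.6 and 59.3 CPM in YEJG-M1 and 100.2, 109 and 101 CPM in YEJG-M2 (log2 fold change -0.75, SE 0.064, edgeR adjusted p = 0.000253). All 3 YEJG-M1 libraries lay below all 3 of YEJG-M2, and in the other 13 lines no library was under 244 CPM. *Cldn4*, a tight junction claudin, measured 29.8, 28.1 and 26.5 CPM against 66.8, 70.5 and 55.5 CPM (-1.21, SE 0.10, adjusted p = 0.000251). Its relative *Cldn3* measured 52.9, 55.6 and 45.2 CPM against 95.3, 103 and 91.5 CPM (-0.89, SE 0.087, adjusted p = 0.000489). Neither claudin overlapped between lines, and YEJG-M1 was lower in both. The tight junction genes *Ocln* (-0.70), *Marveld2* (-0.87), *F11r* (-0.32) and *Cldn9* (-0.93), the desmosomal plakophilins *Pkp1* (-0.44), *Pkp2* (-0.34) and *Pkp3* (-0.55) and the nectin *Nectin4* (-1.96) were among those called in the same direction. *Cldn1* (0.73) was called the other way, at 24.8, 22.7 and 23.04 CPM against 14.3, 14 and 13.2 CPM, and its level was below that of the other 13 lines in both.

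Luminal epithelial genes followed the junction genes, with 37.5% called beside 10.2% of all genes. Of 16 tested (14 more were not tested), 0 were called higher in YEJG-M1 and 6 higher in YEJG-M2, with a median log2 fold change of -0.41 (counts of 0 and 3 without YEJG-M1 replicate 2, and of 0 and 0 without YEJG-M2 replicate 1). *Epcam*, an epithelial adhesion molecule, measured 122, 135 and 125 CPM against 201, 205 and 187 CPM (log2 fold change -0.63, SE 0.068, edgeR adjusted p = 0.000844). *Esrp1*, a splicing regulator of epithelial cells, measured 34.0, 32.4 and 32.2 CPM against 53.4, 52.2 and 48.9 CPM (-0.67, SE 0.071, adjusted p = 0.000742), and its relative *Esrp2* changed by -0.87. The lines did not overlap for *Epcam* or *Esrp1*. The epithelial transcription factors *Grhl2* (-0.39) and *Ovol1* (-0.90) and the keratin *Krt7* (-0.69) were also called higher in YEJG-M2. The simple epithelial keratins *Krt8* (0.25, adjusted p = 0.0553) and *Krt18* (0.17, adjusted p = 0.151) did not pass. For all 6 called luminal genes YEJG-M1 had the lowest mean CPM of the 15 lines and YEJG-M2 ranked 14. The same order held for 10 of the 13 junction genes called higher in YEJG-M2, the exceptions being *Nectin4*, *Cldn9* and *Pkp2*.

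**Figure D2:**
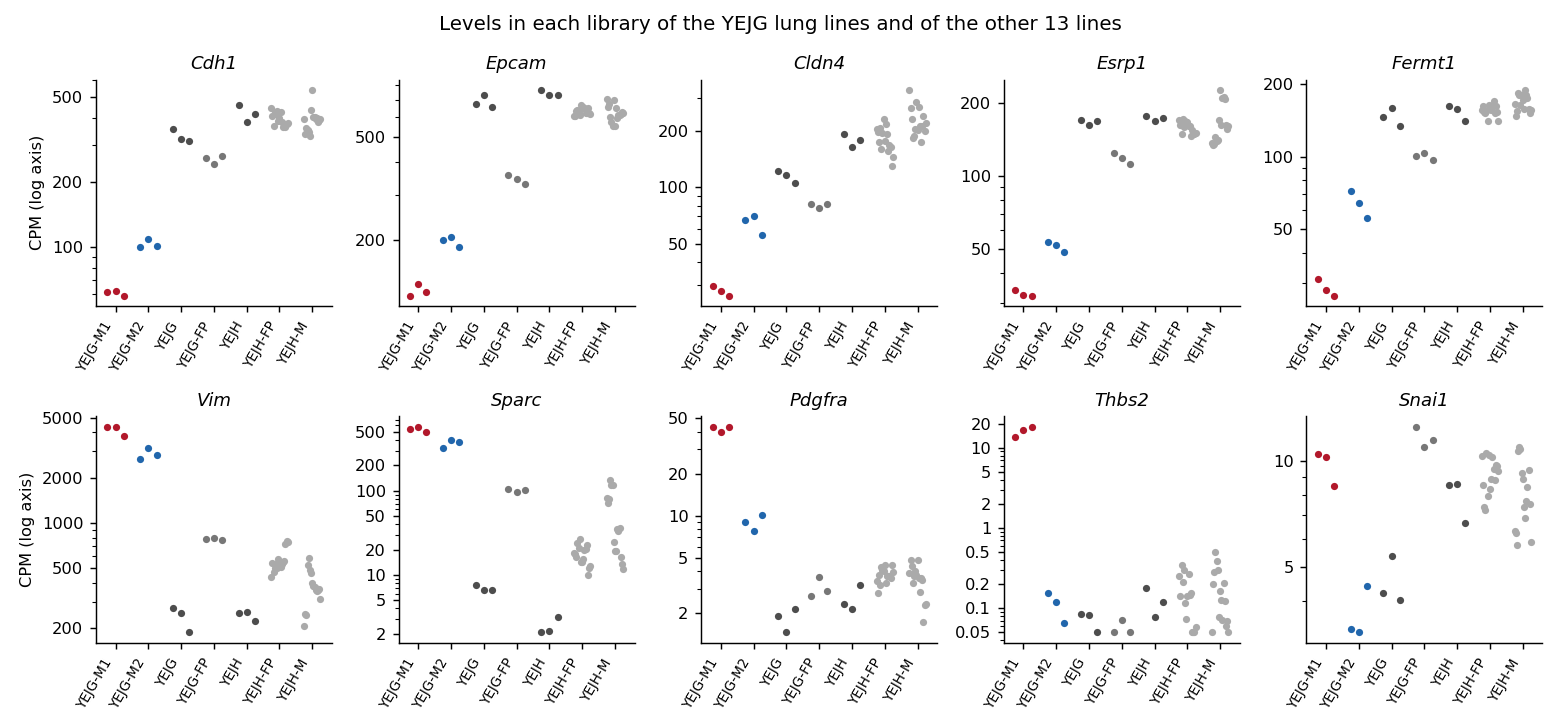
Level of 10 genes in every library, in CPM on a log axis, by line (YEJH-FP and YEJH-M each hold 5 lines). *Cdh1* lies at 59.3 to 62.6 CPM in YEJG-M1, 100.2 to 109 in YEJG-M2 and at 244 or more elsewhere, while *Vim* lies at 2673 CPM or more in both lung lines and at most 798 elsewhere.

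Promoters of 3 of these genes are shown because their transcripts moved together and because Snail and Zeb proteins are known to bind the E-box CACCTG, read on the other strand as CAGGTG. The sequences are RefSeq's on GRCm38.p6, from 250 bases before to 50 after the start, 5′ to 3′, with matches on either strand in capitals. *Cldn4* lies at chr5:134946885-134947184 (minus strand), *Cldn3* at chr5:134985964-134986263 (plus strand) and *Epcam* at chr17:87635729-87636028 (plus strand).
Cldn4: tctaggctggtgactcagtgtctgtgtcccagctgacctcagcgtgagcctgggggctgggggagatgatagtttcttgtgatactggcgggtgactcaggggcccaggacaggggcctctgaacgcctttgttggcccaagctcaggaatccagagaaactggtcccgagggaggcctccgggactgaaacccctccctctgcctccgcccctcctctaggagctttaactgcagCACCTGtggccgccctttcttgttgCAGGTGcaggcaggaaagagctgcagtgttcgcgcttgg
Cldn3: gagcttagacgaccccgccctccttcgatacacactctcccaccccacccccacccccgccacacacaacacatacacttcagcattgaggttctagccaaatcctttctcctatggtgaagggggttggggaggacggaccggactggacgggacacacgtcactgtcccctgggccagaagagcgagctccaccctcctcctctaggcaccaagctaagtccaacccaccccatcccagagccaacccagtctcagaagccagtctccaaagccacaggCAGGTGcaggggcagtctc
Epcam: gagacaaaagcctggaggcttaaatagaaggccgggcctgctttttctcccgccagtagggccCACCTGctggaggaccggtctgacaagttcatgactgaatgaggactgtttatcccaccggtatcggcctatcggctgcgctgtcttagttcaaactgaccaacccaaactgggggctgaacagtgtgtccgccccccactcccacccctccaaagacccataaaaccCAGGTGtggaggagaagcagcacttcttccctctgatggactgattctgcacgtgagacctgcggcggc
These windows held 2, 1 and 2 matches. Of the 19 junction and luminal genes called higher in YEJG-M2, 8 had a promoter in the table and 7 of the 8 held a match, *Nectin4* being the exception. A match was held by 22.6% of all 27025 genes there and by 20.2% of their 32851 promoters. A match describes letters in a window and not a bound site. These genes were picked by their change in these data and most had no promoter in the table, so the shares are not a test. Any part of Snail or Zeb proteins in their levels was not tested.

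The transition factors moved in different directions. *Snai1* was higher in YEJG-M1, at 10.5, 10.3 and 8.47 CPM against 3.31, 3.25 and 4.39 CPM (log2 fold change 1.46, SE 0.17, edgeR adjusted p = 0.00134). *Snai2* was lower, at 1.89, 1.95 and 1.90 CPM against 3.93, 4.69 and 4.33 CPM (-1.13, SE 0.17, adjusted p = 0.0048). Neither overlapped between lines. For *Snai1*, libraries of YEJG had 4.01 to 5.36 CPM and those of YEJG-FP 10.98 to 12.5 CPM. Libraries of YEJH, its fat-pad lines and its lung lines had 6.66 to 8.62, 7.27 to 10.6 and 5.77 to 10.96 CPM. YEJG-M1 thus lay within the range of the other lines, and YEJG-M2 near or below its lower end. *Zeb1* (-0.0080, adjusted p = 0.974), *Zeb2* (0.30, adjusted p = 0.229) and *Twist1* (0.11, adjusted p = 0.519) did not pass, nor did N-cadherin *Cdh2* (0.020, adjusted p = 0.91). *Zeb1* measured 48.1, 51.4 and 54.7 CPM against 48.8, 52.7 and 55.8 CPM, with overlap between lines.

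Mesenchymal genes as a list were called in both directions, at 57.1% beside 10.2% of all genes. Of 21 tested (5 more were not tested), 8 were called higher in YEJG-M1 and 4 higher in YEJG-M2, with a median log2 fold change of 0.11 (counts of 3 and 1 without YEJG-M1 replicate 2, and of 3 and 1 without YEJG-M2 replicate 1). *Vim*, vimentin, measured 4351, 4334 and 3799 CPM against 2673, 3150.0 and 2819 CPM (log2 fold change 0.57, SE 0.079, edgeR adjusted p = 0.00315). *Sparc*, a collagen-binding matrix protein, measured 543, 577 and 499 CPM against 324, 400.1 and 375 CPM (0.62, SE 0.066, adjusted p = 0.000762). YEJG-M1 was the higher line in both without overlap, and no library of the other 13 lines exceeded 798 CPM of *Vim* or 134 CPM of *Sparc*. *S100a4* (0.58) and *Tgfbi* (3.43) and the interstitial collagens *Col1a1* (1.84), *Col3a1* (1.6) and *Col1a2* (0.77) were also called higher in YEJG-M1. These collagens were low in both lines. Means in YEJG-M1 and YEJG-M2 were 3.96 and 1.12 CPM for *Col1a1*, 5.91 and 2.02 for *Col3a1*, and 4.93 and 3.12 for *Col1a2*. The call of *Col1a2* was lost in 9 alternatives. Fibronectin *Fn1* (-0.37) and the fibrillar collagen *Col5a1* (-0.51) were called higher in YEJG-M2. Of the 10 fibroblast markers 5 could be tested, all in these lists: *Col1a1*, *Col1a2*, *Col3a1* and *Pdgfra* were higher in YEJG-M1 and *Pdgfrb* in YEJG-M2, while *Lum* and *Tcf21* had no read in either line.

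The receptors of platelet-derived growth factor moved apart. *Pdgfra* measured 43.3, 39.6 and 43.5 CPM in YEJG-M1 and 9.01, 7.81 and 10.1 CPM in YEJG-M2 (log2 fold change 2.19, SE 0.12, edgeR adjusted p = 2.28e-05). *Pdgfrb* measured 18.5, 21.5 and 20.7 CPM against 61.1, 76.5 and 81.5 CPM (-1.76, SE 0.093, adjusted p = 2.28e-05). YEJG-M1 was high for *Pdgfra* and YEJG-M2 for *Pdgfrb*, without overlap, and no library of the other 13 lines exceeded 4.84 CPM of *Pdgfra*.

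Matrix genes were called in either direction. Of 28 tested (12 more were not tested), 8 were called higher in YEJG-M1 and 6 higher in YEJG-M2, with a median log2 fold change of -0.090 (counts of 5 and 2 without YEJG-M1 replicate 2, and of 5 and 2 without YEJG-M2 replicate 1). *Loxl3*, a lysyl oxidase that cross-links collagen, measured 39.6, 37.8 and 36.7 CPM against 7.78, 7.57 and 7.30 CPM (log2 fold change 2.32, SE 0.089, edgeR adjusted p = 4.61e-06). The thrombospondin *Thbs2*, a matricellular protein, measured 13.7, 16.5 and 18.3 CPM against 0.154, 0.120 and 0.0646 CPM (7.09, SE 0.29, adjusted p = 6.57e-06). Both were high in YEJG-M1 without overlap. The collagen IV chains *Col4a5* (0.71) and *Col4a6* (0.96), with *Col18a1* (0.40), *Fbln1* (1.69), *Sdc2* (0.31) and *Loxl1* (1.89), were also higher in YEJG-M1. The laminin chains *Lama3* (-0.97) and *Lamb3* (-0.39), with *Col7a1* (-0.78), *Agrn* (-0.39) and *Loxl4* (-2.73), were among those higher in YEJG-M2. *Lama3* measured 67.8, 69.2 and 73.5 CPM against 149.7, 122 and 128 CPM, without overlap.

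Integrin genes gave more calls in YEJG-M2 than in YEJG-M1, with 46.7% called beside 10.2% of all genes. Of 30 tested (3 more were not tested), 4 were called higher in YEJG-M1 and 10 higher in YEJG-M2, with a median log2 fold change of -0.076 (counts of 1 and 2 without YEJG-M1 replicate 2, and of 1 and 2 without YEJG-M2 replicate 1). *Itgb1*, the beta chain of most matrix-binding integrins, measured 724, 755 and 759.8 CPM against 961, 935 and 954 CPM (log2 fold change -0.35, SE 0.061, edgeR adjusted p = 0.00826). *Fermt1*, the kindlin of epithelial cells, measured 31.1, 28.1 and 26.7 CPM against 72.1, 64.1 and 56.0 CPM (-1.22, SE 0.10, adjusted p = 0.000184). YEJG-M2 was higher in both without overlap, and every library of the other 13 lines had at least 96.4 CPM of *Fermt1*. The collagen-binding chain *Itga2* (-1.09), the hemidesmosomal chain *Itgb4* (-0.34), the beta chains *Itgb3* (-1.73), *Itgb5* (-0.54) and *Itgb6* (-0.59) and the focal adhesion genes *Vcl* (-0.28), *Zyx* (-0.63) and *Tns3* (-0.30) were called with them. *Itgb7*, a beta chain known from leukocytes, was higher in YEJG-M1 at 208, 198 and 191 CPM against 69.2, 75.8 and 83.9 CPM (1.41, SE 0.087, adjusted p = 5.6e-05). *Itga8* (0.93) and *Tln2* (0.39) and focal adhesion kinase *Ptk2* (0.27) were called in that direction.

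Pericellular proteases and their inhibitors were called both ways, at 37.1% beside 10.2% of all genes. Of 35 tested (9 more were not tested), 7 were called higher in YEJG-M1 and 6 higher in YEJG-M2, with a median log2 fold change of -0.054 (counts of 1 and 3 without YEJG-M1 replicate 2, and of 2 and 1 without YEJG-M2 replicate 1). The urokinase gene *Plau* measured 183, 174 and 135 CPM against 316, 308 and 235 CPM (log2 fold change -0.82, SE 0.15, edgeR adjusted p = 0.0095), higher in YEJG-M2 without overlap. Matriptase *St14* (-0.73), its inhibitors *Spint1* (-0.94) and *Spint2* (-0.68) and *Adam12* (-1.54) were also higher in YEJG-M2. Tissue plasminogen activator *Plat* (0.79), *Serpine2* (0.92), *Adam8* (0.38), *Mmp19* (1.13), *Klk10* (0.56) and *Serpinb9* (0.51) and *Serpinb6b* (2.15) were higher in YEJG-M1. *Serpinb6b* has close paralogs between which reads can be split, so its value is uncertain.

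**Figure D3:**
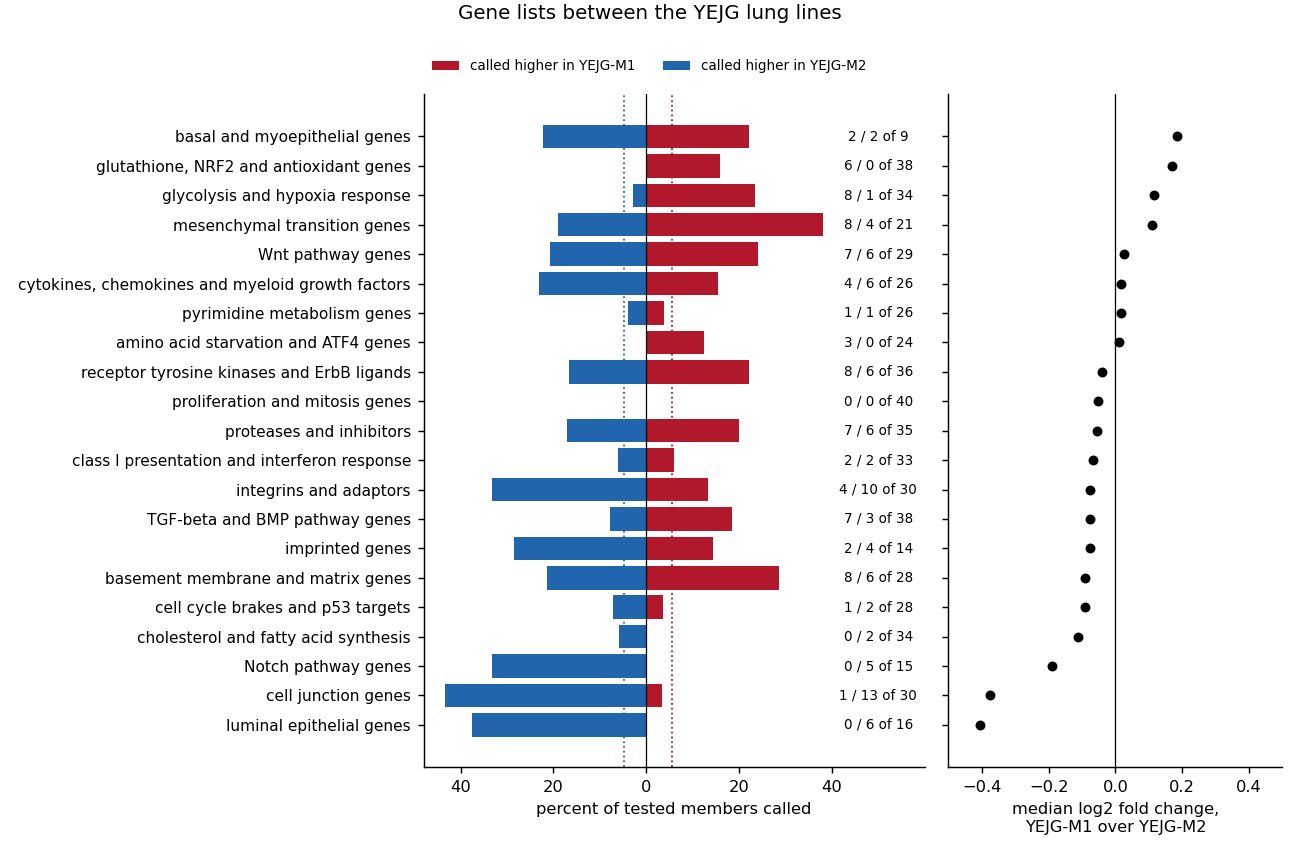
Gene lists with the percent of tested members called higher in YEJG-M1 and in YEJG-M2, beside the median log2 fold change of YEJG-M1 over YEJG-M2. Bars give calls in YEJG-M1 (red) and YEJG-M2 (blue), and dotted lines mark the percentages over all genes, 5.46% and 4.73%, while junction genes had 1 and 13 calls of 30 and luminal genes 0 and 6 of 16.

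Wnt ligands and antagonists held some large differences, and 44.8% of the Wnt list was called beside 10.2% of all genes. Of 29 tested (18 more were not tested), 7 were called higher in YEJG-M1 and 6 higher in YEJG-M2, with a median log2 fold change of 0.025 (counts of 3 and 1 without YEJG-M1 replicate 2, and of 4 and 1 without YEJG-M2 replicate 1). *Wnt5a*, a ligand of noncanonical signalling, measured 16.5, 16.9 and 18.4 CPM against 1.16, 1.62 and 0.517 CPM (log2 fold change 3.93, SE 0.25, edgeR adjusted p = 6.32e-05). *Wnt5b* measured 12.3, 13.4 and 13.9 CPM against 1.08, 1.62 and 2.07 CPM (3.09, SE 0.19, adjusted p = 5.77e-05). The secreted antagonist *Sfrp1* measured 9.25, 10.9 and 8.21 CPM against 0.154, 0.421 and 0.581 CPM (4.69, SE 0.25, adjusted p = 2.28e-05). All were higher in YEJG-M1 than in YEJG-M2, without overlap. Among the 15 lines YEJG-M1 ranked 1 and YEJG-M2 ranked 2 for *Wnt5a*, but 14 and 15 for *Wnt5b* and 13 and 15 for *Sfrp1*. *Tcf7* (0.83), *Apcdd1* (0.75), *Lgr4* (0.28) and *Lgr6* (0.60) were also higher in YEJG-M1. The ligands *Wnt7a* (-0.56) and *Wnt10a* (-1.31), the receptors *Fzd2* (-0.42), *Fzd6* (-0.47) and *Fzd9* (-1.59) and *Kremen1* (-0.46) were higher in YEJG-M2.

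In the TGF-beta and BMP list, ligands, antagonists and Id genes were called, a share of 26.3% beside 10.2% of all genes. Of 38 tested (10 more were not tested), 7 were called higher in YEJG-M1 and 3 higher in YEJG-M2, with a median log2 fold change of -0.076 (counts of 1 and 0 without YEJG-M1 replicate 2, and of 2 and 0 without YEJG-M2 replicate 1). *Fst*, follistatin, which binds activins, measured 99.4, 109 and 87.0 CPM against 57.5, 49.5 and 42.6 CPM (log2 fold change 0.97, SE 0.13, edgeR adjusted p = 0.00206), higher in YEJG-M1 without overlap. The BMP ligands *Bmp2* (2.1) and *Bmp4* (2.89), low in both lines, were called with it. So were the activin chain *Inhbb* (0.51) and *Id1* (0.32), *Id3* (0.35) and *Id4* (1.46), known BMP targets. The calls of *Inhbb*, *Id1*, *Bmp2*, *Id3* and *Bmp4* were lost in 9, 8, 7, 6 and 5 alternatives, and that of *Id4* in 0. The ligands *Tgfb1* (-0.55) and *Inhba* (-0.54) and the Smad corepressor *Skil* (-0.45) were higher in YEJG-M2.

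Notch calls all pointed to YEJG-M2, with a share of 33.3% beside 10.2% of all genes. Of 15 tested (8 more were not tested), 0 were called higher in YEJG-M1 and 5 higher in YEJG-M2, with a median log2 fold change of -0.19 (counts of 0 and 0 without YEJG-M1 replicate 2, and of 0 and 0 without YEJG-M2 replicate 1). They were the receptors *Notch2* (-0.29) and *Notch3* (-1.49), the ligand *Jag1* (-0.31), the glycosyltransferase *Rfng* (-0.48) and *Dtx4* (-0.45). The calls of *Rfng*, *Jag1* and *Notch3* were lost in 11, 10 and 7 alternatives.

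Receptor tyrosine kinase genes were called both ways, at 38.9% beside 10.2% of all genes. Of 36 tested (10 more were not tested), 8 were called higher in YEJG-M1 and 6 higher in YEJG-M2, with a median log2 fold change of -0.040 (counts of 3 and 2 without YEJG-M1 replicate 2, and of 3 and 2 without YEJG-M2 replicate 1). *Erbb3* measured 21.1, 21.6 and 22.2 CPM against 29.1, 30.1 and 30.0 CPM (log2 fold change -0.46, SE 0.078, edgeR adjusted p = 0.00798). *Fgfr2* measured 24.0, 22.3 and 23.8 CPM against 9.63, 11.7 and 10.9 CPM (1.13, SE 0.10, adjusted p = 0.000378). Neither overlapped between lines. *Erbb2* (-0.38) and *Egfr* (-0.40), the ephrin receptors *Epha7* (-3.24) and *Ephb6* (-0.62) and *Pdgfb* (-0.80) were higher in YEJG-M2. *Fgfr1* (0.53) and *Fgfr3* (0.87), the collagen receptor *Ddr2* (0.77), the hepatocyte growth factor receptor *Met* (0.30) and *Ret* (1.73) and *Nrg2* (0.95) were higher in YEJG-M1. The call of *Fgfr3* was lost in 11 alternatives, and those of *Erbb2* and *Egfr* in 5 each.

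Cytokine genes were called in both directions, at 38.5% beside 10.2% of all genes. Of 26 tested (12 more were not tested), 4 were called higher in YEJG-M1 and 6 higher in YEJG-M2, with a median log2 fold change of 0.017 (counts of 0 and 1 without YEJG-M1 replicate 2, and of 3 and 0 without YEJG-M2 replicate 1). *Ccl2*, a monocyte chemokine, measured 35.6, 41.1 and 28.6 CPM against 19.9, 18.9 and 14.2 CPM (log2 fold change 1.01, SE 0.17, edgeR adjusted p = 0.00659), higher in YEJG-M1 without overlap. *Ccl7* (1.59), *Cxcl12* (1.13) and *Il17b* (4.46) were called with it. The neutrophil attractants *Cxcl2* (-1.25) and *Cxcl3* (-0.65), the granulocyte growth factor *Csf3* (-0.70) and *Cxcl16* (-0.76), *Il1a* (-0.82) and *Il23a* (-0.92) were higher in YEJG-M2. Class I presentation and interferon genes were called at 12.1%, beside 10.2% of all genes. Of 33 tested (9 more were not tested), 2 were called higher in YEJG-M1 and 2 higher in YEJG-M2, with a median log2 fold change of -0.067 (counts of 0 and 0 without YEJG-M1 replicate 2, and of 1 and 0 without YEJG-M2 replicate 1). *B2m*, the light chain of class I molecules, measured 281, 275 and 275 CPM against 206, 211 and 203 CPM (0.42, SE 0.058, adjusted p = 0.00289), and the class I transactivator *Nlrc5* (1.56) was called with it, while *Tap2* (-0.61) and *Ifih1* (-1.42) were higher in YEJG-M2.

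Glycolysis and hypoxia genes leaned to YEJG-M1, with 26.5% called beside 10.2% of all genes. Of 34 tested (3 more were not tested), 8 were called higher in YEJG-M1 and 1 higher in YEJG-M2, with a median log2 fold change of 0.11 (counts of 2 and 0 without YEJG-M1 replicate 2, and of 2 and 0 without YEJG-M2 replicate 1). *Pfkm*, a phosphofructokinase subunit, measured 62.0, 59.8 and 54.7 CPM against 29.7, 33.8 and 32.4 CPM (log2 fold change 0.91, SE 0.081, edgeR adjusted p = 0.000314). *Bnip3*, a hypoxia-induced mitophagy receptor, measured 77.1, 65.4 and 76.3 CPM against 43.2, 41.4 and 37.9 CPM (0.77, SE 0.069, adjusted p = 0.000317). Both were higher in YEJG-M1 without overlap. *Pfkp* (0.35), *Eno2* (1.10), *Pdk1* (0.64) and *Egln3* (0.59) and the collagen prolyl hydroxylases *P4ha1* (0.35) and *P4ha2* (0.87) were called with them, and *Pfkfb4* (-0.46) the other way. For all 8 genes called higher in YEJG-M1 that line ranked 1 of the 15 lines.

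Glutathione and antioxidant calls also pointed to YEJG-M1, with a share of 15.8% beside 10.2% of all genes. Of 38 tested (5 more were not tested), 6 were called higher in YEJG-M1 and 0 higher in YEJG-M2, with a median log2 fold change of 0.17 (counts of 2 and 0 without YEJG-M1 replicate 2, and of 2 and 0 without YEJG-M2 replicate 1). *Gsta4*, a transferase for lipid peroxidation products, measured 56.4, 57.6 and 56.3 CPM against 26.8, 24.6 and 28.5 CPM (log2 fold change 1.09, SE 0.087, edgeR adjusted p = 0.000189), without overlap. *Srxn1* (0.47), *Txn1* (0.34) and *Gsto1* (0.39) were called with it, as were *Gstm1* (1.34) and *Gstm2* (1.2), which belong to a family of near-identical genes and are uncertain. Amino acid starvation genes were called at 12.5%, beside 10.2% of all genes. Of 24 tested (2 more were not tested), 3 were called higher in YEJG-M1 and 0 higher in YEJG-M2, with a median log2 fold change of 0.012 (counts of 2 and 0 without YEJG-M1 replicate 2, and of 1 and 0 without YEJG-M2 replicate 1). They were *Atf5* (1.06), *Aldh1l2* (0.87) and *Ddit3* (0.70).

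Pyrimidine genes gave 1 call each way, a share of 7.69% beside 10.2% of all genes. Of 26 tested (10 more were not tested), 1 was called higher in YEJG-M1 and 1 higher in YEJG-M2, with a median log2 fold change of 0.016 (counts of 0 and 0 without YEJG-M1 replicate 2, and of 0 and 0 without YEJG-M2 replicate 1). *Upp1*, the uridine phosphorylase whose product is uracil, measured 31.7, 29.9 and 25.5 CPM in YEJG-M1 and 21.4, 22.3 and 19.7 CPM in YEJG-M2 (log2 fold change 0.46, SE 0.11, edgeR adjusted p = 0.0308). The libraries did not overlap, and the lines ranked 10 and 15 of the 15. Its call was lost in 5 of 20 alternatives, with an adjusted p of up to 0.414. *Upp2* measured 1.80, 0.911 and 1.05 CPM against 1.16, 1.08 and 0.387 CPM and did not pass (0.27, adjusted p = 0.776). The ecto-nucleotidase gene *Nt5e* (-0.54) was higher in YEJG-M2.

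The remaining lists are given by their counts and shares, beside 10.2% of all genes called. Proliferation and mitosis genes gave 0 calls of 40 by edgeR, with 4 at an unadjusted p under 0.05, and at most 1 higher in YEJG-M1 and 3 higher in YEJG-M2 in any alternative (median -0.053). Cell cycle brakes and p53 targets gave 3 of 28 (10.7%): *Cdkn2c* (0.43) was higher in YEJG-M1 and *Pmaip1* (-1.45) and *Zmat3* (-0.40) in YEJG-M2 (median -0.090). Cholesterol and fatty acid synthesis gave 2 of 34 (5.88%), *Fasn* (-0.38) and *Fads2* (-0.46), both higher in YEJG-M2 (median -0.11). Basal and myoepithelial genes gave 4 of 9 (44.4%): *Mylk* (1.57) and *Krt6a* (1.51) were higher in YEJG-M1 and *Acta2* (-2.12) and *Procr* (-0.77) in YEJG-M2 (median 0.19). Immediate early and heat shock genes gave 3 of 18 (16.7%): *Hspa5* (0.56) was higher in YEJG-M1 and *Myc* (-0.59) and *Jund* (-0.41) in YEJG-M2 (median -0.15). Of 39 Hox genes 2 could be tested and neither was called (median 0.33).

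Imprinted genes, called at 42.9% beside 10.2% of all genes, included a pair of neighbours. Of 14 tested (27 more were not tested), 2 were called higher in YEJG-M1 and 4 higher in YEJG-M2, with a median log2 fold change of -0.077 (counts of 2 and 2 without YEJG-M1 replicate 2, and of 2 and 2 without YEJG-M2 replicate 1). *Peg10* and *Sgce*, both expressed from the paternal allele, lie head to head on chromosome 6, 98 bp apart on GRCm39. *Peg10* measured 0.514, 0.586 and 0.197 CPM against 5.24, 5.23 and 4.78 CPM (log2 fold change -3.54, SE 0.30, edgeR adjusted p = 0.000229). *Sgce* measured 0.171, 0.521 and 0.263 CPM against 3.08, 3.25 and 3.49 CPM (-3.19, SE 0.31, adjusted p = 0.000515). YEJG-M2 was higher in both without overlap. The retrogene *Mcts2*, which lies within *H13*, measured 14.6, 14.8 and 15.1 CPM against 5.62, 6.13 and 7.10 CPM (1.26, SE 0.12, adjusted p = 0.000515), while *H13* (-0.35) was called the other way. Reads of overlapping genes cannot be told apart here, so that pair is uncertain. *Igf2r* (0.98) and *Snrpn* (-1.18) were the remaining calls.

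The 15 genes with the largest called change in each direction were taken among protein-coding genes of at least 5 CPM in every library of the higher line and without overlap between lines. *Ngfr*, the low-affinity neurotrophin receptor, measured 70.3, 67.4 and 72.9 CPM in YEJG-M1 and 3.54, 4.63 and 4.71 CPM in YEJG-M2 (log2 fold change 4.02, SE 0.11, edgeR adjusted p = 1.93e-06). *Armcx2* measured 31.8, 29.2 and 28.0 CPM against 1.77, 1.80 and 1.87 CPM (4.01, SE 0.13, adjusted p = 3.06e-06). *Peli2*, a ubiquitin ligase of the Pellino family, measured 15.5, 16.5 and 13.3 CPM against 0.0770, 0.0601 and 0.194 CPM (7.05, SE 0.27, adjusted p = 4.61e-06). YEJG-M1 was higher than YEJG-M2 in each, without overlap, which the rule required. Among the 15 lines YEJG-M1 ranked 1 for *Armcx2* and *Peli2*. For *Ngfr*, YEJG-M1 and YEJG-M2 ranked 3 and 13, with YEJG at 128 CPM and YEJG-FP at 3.74 CPM. *Kcnab2* (5.08), *Nexmif* (4.54), *Speg* (3.92), *Tafa5* (3.53) and *Nptx1* (3.38) and *Ifi203* (3.99) completed the genes higher in YEJG-M1, with *Tex13b*, *Mrc2*, *Thbs2*, *Sfrp1*, *Wnt5a* and *Tgfbi*. *Ifi203* has near-identical relatives and is uncertain.

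On the other side, *Masp1*, a protease of the lectin complement pathway, measured 4.97, 4.95 and 4.92 CPM in YEJG-M1 and 44.9, 52.8 and 39.5 CPM in YEJG-M2 (log2 fold change -3.20, SE 0.13, edgeR adjusted p = 6.65e-06). The secreted guidance gene *Sema3a* measured 6.94, 8.85 and 8.07 CPM against 42.0, 46.1 and 50.1 CPM (-2.46, SE 0.10, adjusted p = 5.97e-06). *Adam19*, a membrane metalloprotease, measured 0, 0.130 and 0.197 CPM against 7.08, 6.85 and 5.75 CPM (-5.75, SE 0.37, adjusted p = 6.7e-05). YEJG-M2 ranked 1 of the 15 lines in each and YEJG-M1 ranked 3. *Foxj1*, the transcription factor of motile cilia, measured 2.14, 1.69 and 0.853 CPM against 13.4, 15.6 and 15.6 CPM (-3.22, SE 0.23, adjusted p = 0.000107). Its levels ranked 15 and 13 of the lines. *Npr3* (-3.28), *Fkbp10* (-3.28), *Tbx15* (-3.23), *Fhl1* (-3.12), *Ak3* (-2.96), *Cachd1* (-2.69), *Tmeff1* (-2.66), *Ifi47* (-2.45), *Dapk1* (-2.15), *Acta2* (-2.12) and *Myl9* (-2.06) completed the genes higher in YEJG-M2.

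**Figure D4:**
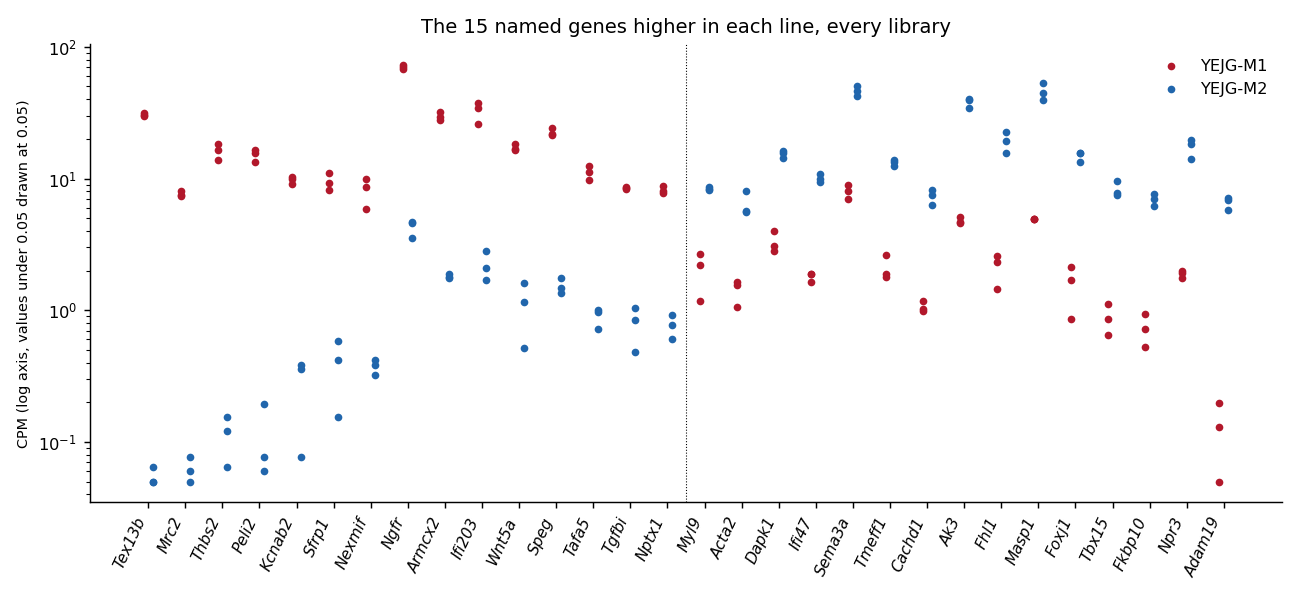
Level of the 15 genes with the largest called change in each direction, in CPM on a log axis, with a point for each library of YEJG-M1 and YEJG-M2. Genes were chosen for libraries that do not overlap between lines, and *Tex13b* lies at 29.7 to 31.3 CPM in YEJG-M1 and at 0.0646 CPM or 0 in YEJG-M2.

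In 10 protein-coding genes every library of 1 line had at least 1 CPM and the other line had at most 3 reads in all, a rule chosen after the values were seen; 7 were present in YEJG-M1 and 3 in YEJG-M2. *Tex13b*, an X-linked gene named for expression in testis, measured 29.7, 30.4 and 31.3 CPM against 0, 0 and 0.0646 CPM, with 1291 reads against 1 (ratio 1378, interval 247 to 54470.0), where the interval is a 95% counting interval. No library of the other 13 lines exceeded 0.180 CPM. *Mrc2*, an endocytic collagen receptor, had 323 reads against 2 (ratio 172, interval 47.3 to 1429), and *Eef1a2*, a translation elongation factor of muscle and neurons, 214 reads against 3 (ratio 76.1, interval 25.7 to 372). *Cyria*, *Rorb* and *Zdhhc15* had 67, 63 and 47 reads against 1 each. *Limch1* had 80 reads against 0, at least 28.5-fold higher with a floor of 3 reads over the group. In YEJG-M2, *Kcnq5* had 127 reads against 0, at least 39.7-fold higher by the same floor. *Tfpi*, a coagulation inhibitor, had 105 reads against 2 (ratio 49.2, interval 13.3 to 412) and *Camk1d* 88 reads against 3 (ratio 27.5, interval 9.10 to 136). Intervals and floors cover counting error only.

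The *Tex13b* promoter is shown because the gene stood at a moderate level in 1 lung line and near no read in the others. It lies on GRCm38.p6 at chrX:140813384-140813683 (minus strand, RefSeq, same window), with CG dinucleotides in capitals.
Tex13b: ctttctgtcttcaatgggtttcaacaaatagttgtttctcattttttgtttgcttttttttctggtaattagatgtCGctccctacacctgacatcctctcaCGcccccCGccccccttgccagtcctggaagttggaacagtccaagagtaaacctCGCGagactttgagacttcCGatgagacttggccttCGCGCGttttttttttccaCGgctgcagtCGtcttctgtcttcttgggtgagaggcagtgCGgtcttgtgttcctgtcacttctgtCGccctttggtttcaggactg
It holds 13 CG dinucleotides, where the median promoter holds 7 and 36.3% hold more. Methylation was not measured in these libraries.

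Along chromosome 15, protein-coding genes of at least 10 CPM formed a stretch with a small common shift, found after the fold changes were seen and given without a test. From *Rpap3* onward (GRCm39 chr15:97572977-103275270) 71 of 74 genes had a log2 fold change above 0, with a median of 0.35 and quartiles of 0.22 and 0.43. Of them 41 were called higher in YEJG-M1, *Pfkm* and *Itgb7* among them, and 2 (*Krt7* and *Krt80*) were called higher in YEJG-M2. *Krt8* (0.25) and *Krt18* (0.17), which did not pass, also lie in the stretch. The 300 genes before it had a median of 0.094, and running medians of 41 genes on the other 19 chromosomes ran from -0.20 to 0.17. Relative to same-run libraries of the other 13 lines, the stretch stood at 0.47, 0.45 and 0.36 log2 units in YEJG-M1 and at 0.045, 0.090 and 0.021 in YEJG-M2. The genes before it stood at 0.38, 0.38 and 0.31 in YEJG-M1 and 0.25, 0.32 and 0.29 in YEJG-M2. Run-adjusted values of the other 13 lines ran from -0.20 to 0.36 for the stretch and from -0.24 to 0.36 before it, highest in YEJH-M2.

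**Figure D5:**
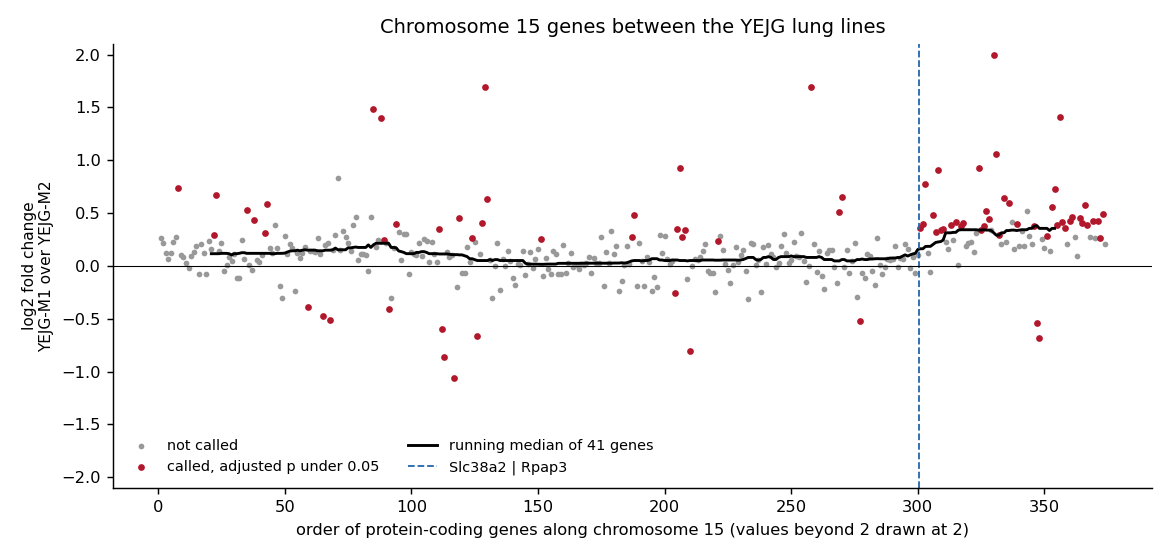
Log2 fold change of YEJG-M1 over YEJG-M2 for 374 protein-coding genes of at least 10 CPM in their order along chromosome 15, with a running median of 41 genes. After the split before *Rpap3*, 71 of 74 genes lie above 0; values above 2 are drawn at 2.

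A distal stretch of chromosome 11 (142 genes, GRCm39 chr11:105480539-121611770) was also picked after the fold changes were seen and is given without a test. The stretch had a median log2 fold change of -0.18, with 122 genes below 0. It stood at -0.94, -1.02 and -1.05 log2 units in YEJG-M1 and -0.80, -0.80 and -0.88 in YEJG-M2. The run-adjusted values of the other 13 lines ran from -0.33 to 0.20, lowest in YEJG-FP (-0.33) and then YEJG (-0.27). *Foxj1*, *Fasn*, *Rfng* and *Itgb4*, called higher in YEJG-M2, and *Nptx1*, called higher in YEJG-M1, lie there. The part of either common shift in the change of a single gene was not tested.

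Set among all 15 lines, the genes at least 2-fold apart fell into several patterns. Of the 270 higher in YEJG-M1, 98 (36.3%) had YEJG-M1 above all 13 other lines with YEJG-M2 within their range. Both lines were above in 88 (32.6%) and within in 34 (12.6%). In a further 33 (12.2%), YEJG-M1 was within and YEJG-M2 below. Of the 153 higher in YEJG-M2, 36 (23.5%) had YEJG-M2 above with YEJG-M1 within, and 36 (23.5%) had YEJG-M1 below with YEJG-M2 within. Both lines were below in 27 (17.65%), above in 25 (16.3%) and within in 25 (16.3%). Over all 13147 genes tested, both lines were above in 18.6%, below in 8.38% and within in 46.3%. YEJG-M1 was above with YEJG-M2 within in 6.57%, and below with YEJG-M2 within in 7.67%. With YEJG-M1 within, YEJG-M2 was above in 10.5% and below in 1.58%. Over the same genes, YEJG-M1 lay outside the range in 41.6% and YEJG-M2 in 39.5%. Choosing genes by their difference between these lines favours patterns in which the lines part, so the shares over all genes are not a test. Genes tested had passed a read filter on the libraries of these lines alone. Genes silent in both lines could therefore not enter, which favours positions above the other lines.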

How the data were processed

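RNA of *PyMT*+ cell lines was extracted with Trizol, and libraries (TruSeq RNA v2) were sequenced on a NextSeq500. The authors deposited raw read counts per gene for 45 libraries. Classes of reads outside genes (5), 31.6% to 43.3% of reads, were left out of library sizes and tests. The submitters' processing notes name FastQC, HISAT2, SAMtools 1.2 and HTSeq and the build GRCh38, although the identifiers are mouse; the mouse build, annotation release and strand setting are not given in the sources used here, so overlapping and antisense genes cannot be told apart. Of 54838 identifiers, 50764 (92.6%) matched GENCODE M39 (GRCm39), which supplied names and positions.

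Libraries were grouped by title, and run was read from the library names. Reads set aside for low alignment quality numbered at least 822828 in every run A library and 0 in run B. Lines were compared with edgeR 4.0.16 in R 4.3.3 (quasi-likelihood test, TMM, filterByExpr, terms for line and run, 6 libraries), with Benjamini-Hochberg adjustment over all genes tested and a threshold of 0.05. The standard error is the size of the fold change over the square root of F. Depth on genes was 9723860 to 16943900 reads per library over the series, which limits precision for genes of few reads. No 2 libraries of a line agreed within sampling noise. Members and gene lists were chosen with earlier results of these data known. Named genes were the 15 protein-coding genes with the largest called change in each direction (at least 5 CPM in every library of the higher line, no overlap), up to 4 called members of each list, and *Upp1*, *Upp2* and *Itgb1*; all other genes were named after their values were seen. Some list members counted in the totals are not reported here by name. Alternatives varied normalisation, filter, covariates, runs and libraries, and used DESeq2 1.42.0 and limma 3.58.1. On counts simulated for this comparison (13147 genes), 61.2% of 67 genes changed 1.5-fold, 79.1% of 67 changed 2-fold and 97% of 66 changed 4-fold were called, with 15 calls among unchanged genes.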

Additional observations from a re-analysis of the deposited data

How the results depend on the processing

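The lines differed in 1340 genes, and in 423 by at least 2-fold. Without a filter on low counts 2024 were called, and in run A alone 576. With at least 50 reads in 3 libraries, 224 passed at 2-fold. Leaving out 1 library at a time gave 280 to 1556 calls, and 194 to 435 at 2-fold: 280 and 194 without YEJG-M1 replicate 2, 280 and 207 without YEJG-M2 replicate 1, and 864 and 353 without YEJG-M2 replicate 2. Of the 280 calls, 279 and 277 were among the 1340. Without YEJG-M1 replicate 1, whose library name differs, 1556 were called. DESeq2 called 1059 and limma with voom 1291. The main fit did not take the replicate numbers to pair libraries. Deviations of same-numbered libraries correlated at 0.151, 0.014 and 0.309, and those of differently numbered libraries at -0.342 to 0.224. These few values do not settle whether the numbers pair libraries. With the replicate block in place of run, 1326 genes were called and 343 at 2-fold, and with block and run together 1710 and 436.

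For 197 named genes and called list members, 3389 of 3918 alternative values kept direction and side of the threshold, 529 (134 genes) lost the call and 0 reversed. Losses were most frequent without YEJG-M2 replicate 1 (124 genes) and YEJG-M1 replicate 2 (122), and in run A (81) and run B alone (49). By gene, the most losses were 11 for *Fgfr3*, *Fzd9* and *Rfng* and 10 for *Cxcl3*, *Fzd2*, *Jag1* and *Mmp19*. Over all alternatives, junction genes called higher in YEJG-M2 numbered 5 to 20, luminal genes 0 to 8, mesenchymal genes called higher in YEJG-M1 3 to 9 and integrin genes called higher in YEJG-M2 2 to 11. The chromosome 15 median ran from 0.33 to 0.38 under these settings. The stretches of chromosomes 15 and 11, and list members outside the naming rule, were added after seeing the data.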
